A study of Mus musculus with 25 samples.

Results

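The integrated stress response is the pathway by which cells slow protein synthesis and switch on a rescue programme of transcription, and 8 of its genes are described here in mouse mammary tumors given a splicing modulator. Eif2ak3, Atf4, Atf3, Ddit3, Asns, Chac1, Trib3 and Ppp1r15a were chosen by symbol for their place in the pathway, by a rule that uses no measured value. Earlier results of these data were known when these genes, and the other lists below, were chosen. All 8 were found among the 17591 genes with intron values and all 8 passed the filter on low counts, as did 13001 genes in total. Their 40 introns were among 163315 in the files, and 28 of the 40 had enough reads to be tested. Mouse mammary tumors of 4 models, all of the triple-negative type of breast cancer, were compared. H3B-8800, a small molecule taken by mouth, binds the SF3B complex of the spliceosome and interferes with recognition of the branch point. Female mice that were 4 or 5 weeks old at transplant, C57BL/6 for PyMT-M and AT3 and Balb/c for 2208L and T11, were randomized to H3B-8800 or vehicle, and whole tumors were sequenced. Libraries numbered 4 with H3B-8800 and 4 with vehicle for PyMT-M, 2 and 3 for AT3, 3 and 3 for 2208L, and 3 and 3 for T11. By the labels, the responders are PyMT-M and 2208L and the nonresponders AT3 and T11. The labels name no driver alleles, and a tumor holds host cells beside the transplanted ones.

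In this pathway a sensor kinase phosphorylates the translation initiation factor eIF2, most mRNAs are then translated less, and the mRNA of the transcription factor ATF4 is translated more. PERK, encoded by Eif2ak3, is the kinase that senses unfolded protein in the endoplasmic reticulum, and GCN2, PKR and HRI are the others. ATF4 and its partners ATF3 and CHOP, the product of Ddit3, turn on genes of amino acid supply such as Asns and regulators such as Chac1 and Trib3, and Ppp1r15a encodes GADD34, which directs a phosphatase back to eIF2. Secretory cells of the mammary gland lean on the endoplasmic reticulum, which is where PERK sits.

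The level of a gene was its spliced reads, counted over all its listed introns as reads overlapping an intron less the reads inside it, per 1000000 such reads in the library (CPM). A library held 9820825 to 19700955 spliced reads and 858362 to 5684308 intronic reads. Ddit3 was measured through a single listed intron, the last of 3 in its transcript. Retention was the percentage of reads overlapping an intron that lay inside it. It was not corrected for intron length, and a longer intron has more room for reads inside it. The percentage is therefore not the share of transcripts that keep the intron, and introns of unlike length cannot be ranked by it. Since the level leaves out reads inside introns, less RNA and less splicing cannot be told apart by a lower level alone. The T11 libraries ran against their labels. Over 5543 introns whose retention was higher with H3B-8800 in PyMT-M, AT3 and 2208L, 21.3% to 54.1% of reads were intronic in H3B-8800 libraries of those models and 4.99% to 13.2% in their vehicle libraries, but 7.26%, 8.31% and 10.1% in T11 libraries labelled H3B-8800 and 15.4%, 35.6% and 29.7% in those labelled vehicle. T11 values are therefore given by label, and a direction in T11 holds only if its labels do. The average effect over models left T11 out.

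Other cells moved with treatment. Summed macrophage markers were 1134 to 1297 CPM in 2208L tumors with H3B-8800 and 154 to 647 CPM with vehicle, and 441 to 675 CPM against 104 to 292 CPM in PyMT-M. Summed B cell markers were 34.9 to 53.0 CPM with H3B-8800 and 2.41 to 5.04 CPM with vehicle in 2208L. They also reached 61.8 CPM in AT3 vehicle replicate 2 and 185 CPM in T11 labelled H3B-8800 replicate 2, where the other libraries of these models had 0.458 to 1.85 CPM. Skeletal muscle markers reached 310 and 198 CPM in H3B-8800 replicates 1 and 2 of PyMT-M, where the vehicle tumors had 3.00 to 6.84 CPM, and they reached 3645 CPM in 2208L vehicle replicate 1. In T11 they reached 524 CPM in labelled H3B-8800 replicate 2 and 4898 CPM in labelled vehicle replicate 3. Epithelial markers summed to 3069 to 6384 CPM in PyMT-M and 2208L but 98.6 to 499.7 CPM in AT3 and T11. All 6 markers of each list were in the files, and Krt5 was at 0 in both T11 groups and in 2208L vehicle tumors and Krt14 in AT3 vehicle tumors. In bulk tumor RNA, fewer cells of a type and less RNA per cell cannot be told apart, and the part of these cells in the results below was not tested.

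The genes that passed the test were not the same in each model. With H3B-8800, Asns, Chac1 and Eif2ak3 rose in PyMT-M, Atf3 rose in 2208L, none passed the test in AT3, and Ddit3 fell in the T11 libraries as labelled. None of the 8 passed for a difference in drug effect between PyMT-M, AT3 and 2208L. Of all genes 1.1% did for PyMT-M against AT3, 1.92% for PyMT-M against 2208L and 0.0154% for 2208L against AT3. In edgeR's quasi-likelihood test with Benjamini-Hochberg adjustment over all genes, 3 of 8 rose past an adjusted p of 0.05 in PyMT-M, where 10.2% of all genes rose, 14.6% fell and 24.8% changed. The count was 1 of 8 in 2208L, where 4.67% of all genes rose, 5.67% fell and 10.3% changed, and 0 of 8 in AT3, where 0.3% changed. In T11 1 of 8 fell by label, where 5.07% of all genes fell and 11.7% changed. At an unadjusted p under 0.05 the same tool gave 1 of 8 in AT3, where 1690 of 13001 genes passed, and DESeq2 called 0. The median log2 change of the 8 was 0.53 in PyMT-M, where the median of all genes was 0.02, and -0.03 in AT3, 0.30 in 2208L and -0.22 in T11, where all genes had 0.00, 0.00 and -0.04. Averaged over PyMT-M, AT3 and 2208L, Eif2ak3 and Ddit3 rose, 2 of 8, where 10.7% of all genes rose and 23.9% changed. Libraries of the 2 treatments did not overlap for 1 of 8 genes in PyMT-M, 2 in AT3, 3 in 2208L and 0 in T11, where 29%, 24.4%, 41.8% and 26.1% of all genes did not overlap.

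**Figure D1:**
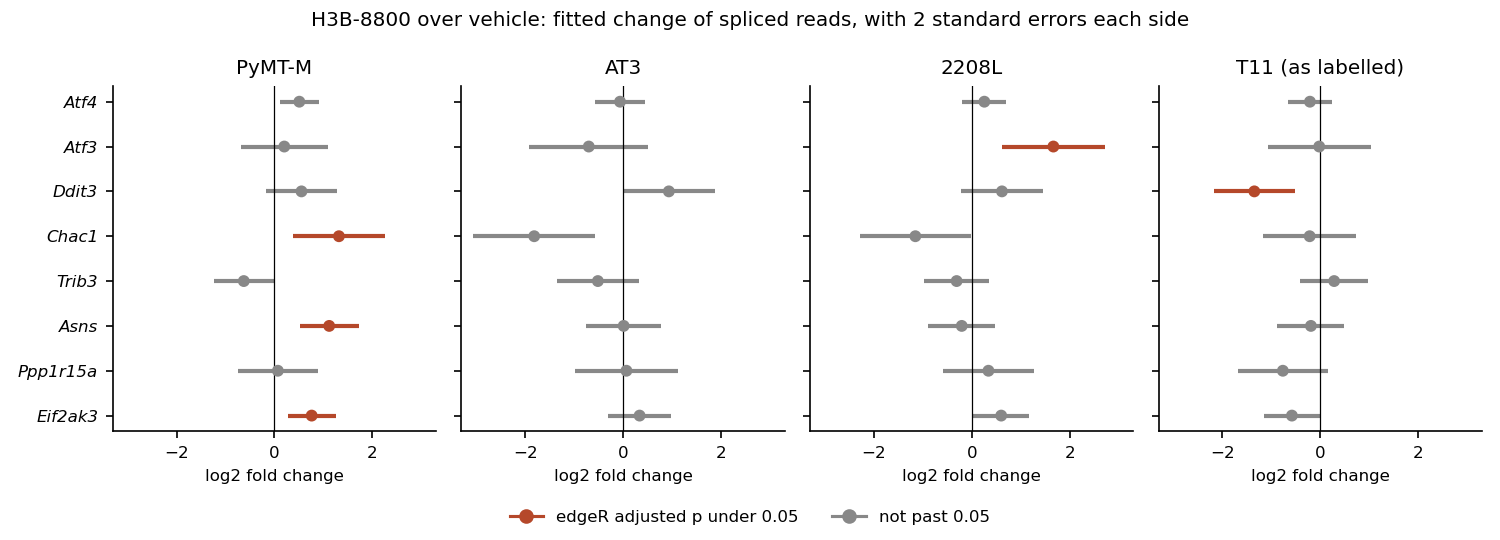
Fitted log2 fold change of spliced reads with H3B-8800 over vehicle for the 8 genes (rows) in each model (panels; T11 as labelled), with bars of 2 standard errors each side and edgeR adjusted p under 0.05 in red. Asns (1.12), Chac1 (1.32) and Eif2ak3 (0.76) are red in PyMT-M, Atf3 (1.67) in 2208L and Ddit3 (-1.35) in T11, and no gene is red in AT3.

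Eif2ak3, the PERK kinase, rose in PyMT-M tumors, to a mean of 131 ± 57.7 CPM with H3B-8800 against 77.1 ± 20.6 CPM with vehicle (SD, n = 4 each). The H3B-8800 tumors had 83.4, 112, 215 and 112 CPM and the vehicle tumors 67.0, 66.1, 108 and 67.3 CPM. In both groups replicate 3 was the highest, and the lowest H3B-8800 tumor lay below the highest vehicle tumor. The log2 change was 0.76 (SE 0.25, edgeR adjusted p = 0.0287), a fold of 1.69. Without H3B-8800 replicate 3 it was 0.41 (adjusted p = 0.196), and the call was also lost without vehicle replicate 1 (0.74), 2 (0.73) or 4 (0.70) and with PyMT-M alone in the fit (0.75, adjusted p = 0.0792).

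In 2208L, Eif2ak3 had 99.4, 75.1 and 81.7 CPM with H3B-8800 and 59.3, 54.8 and 54.6 CPM with vehicle. Each H3B-8800 tumor lay above each vehicle tumor, yet the change of 0.60 (SE 0.29) had an adjusted p of 0.184. It passed, at an adjusted p of 0.016, when only 2208L libraries were fitted. AT3 tumors had 32.2 and 54.8 CPM with H3B-8800 and 39.4, 34.2 and 29.8 CPM with vehicle, and these overlapped. The T11 libraries labelled H3B-8800 had 28.4, 29.6 and 34.4 CPM and those labelled vehicle 31.5, 54.6 and 52.0 CPM (log2 change -0.58, adjusted p = 0.200). Averaged over the 3 other models, Eif2ak3 rose by 0.57 (SE 0.16, adjusted p = 0.0157), and by 0.42 (adjusted p = 0.0924) without AT3 H3B-8800 replicate 2.

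The other kinases did not share this pattern. Eif2ak4, which encodes the amino acid sensor GCN2, fell in PyMT-M to 24.7 ± 1.16 CPM with H3B-8800 against 53.9 ± 13.01 CPM with vehicle (SD, n = 4 each; log2 change -1.13, SE 0.14, edgeR adjusted p = 1.25e-05). Its changes of -0.15 in AT3, -0.37 in 2208L and 0.41 in T11 did not pass. Eif2ak2, the double-stranded RNA sensor PKR, had 0.33 in PyMT-M, -0.85 in AT3, 0.20 in 2208L and 0.62 in T11, and Eif2ak1, the heme sensor HRI, lay between -0.14 and 0.24, none past the test. Of the 8 subunits of eIF2 and of its exchange factor eIF2B, Eif2b1 and Eif2b5 fell in 2208L, where 5.67% of all genes fell. Eif2b5, the catalytic subunit, had 87.1 ± 1.58 CPM with H3B-8800 and 149 ± 4.79 CPM with vehicle in 2208L (SD, n = 3 each; log2 change -0.78, adjusted p = 0.00978), and Eif2b1 changed by -0.75 (adjusted p = 0.0112). No other subunit passed in any model: values for Eif2b2, Eif2b3, Eif2b4, Eif2s1, Eif2s2 and Eif2s3x lay between -0.55 and 0.45.

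Atf4, the central transcription factor, had 67.4, 81.8, 99.9 and 72.8 CPM with H3B-8800 and 55.9, 56.5, 58.1 and 55.9 CPM with vehicle in PyMT-M. Every H3B-8800 tumor lay above every vehicle tumor, and the vehicle tumors spanned a narrow range. The log2 change of 0.51 (SE 0.20) had an adjusted p of 0.0625 and was not called. It passed in DESeq2 (0.0378), under a filter of 5 CPM (0.0358), without the T11 libraries (0.0417) and with PyMT-M alone in the fit (0.0199).

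In AT3, Atf4 had 102 and 56.1 CPM with H3B-8800 and 70.4, 69.5 and 108 CPM with vehicle, a change of -0.06. In 2208L it had 88.3, 78.7 and 76.2 CPM with H3B-8800 and 76.9, 64.5 and 62.0 CPM with vehicle, a change of 0.26 in which 1 H3B-8800 tumor lay below the highest vehicle tumor. The T11 libraries labelled H3B-8800 had 113, 85.7 and 89.8 CPM and those labelled vehicle 149, 105 and 81.4 CPM. Since ATF4 is controlled largely in translation, its mRNA level need not follow its protein, which was not measured.

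**Figure D2:**
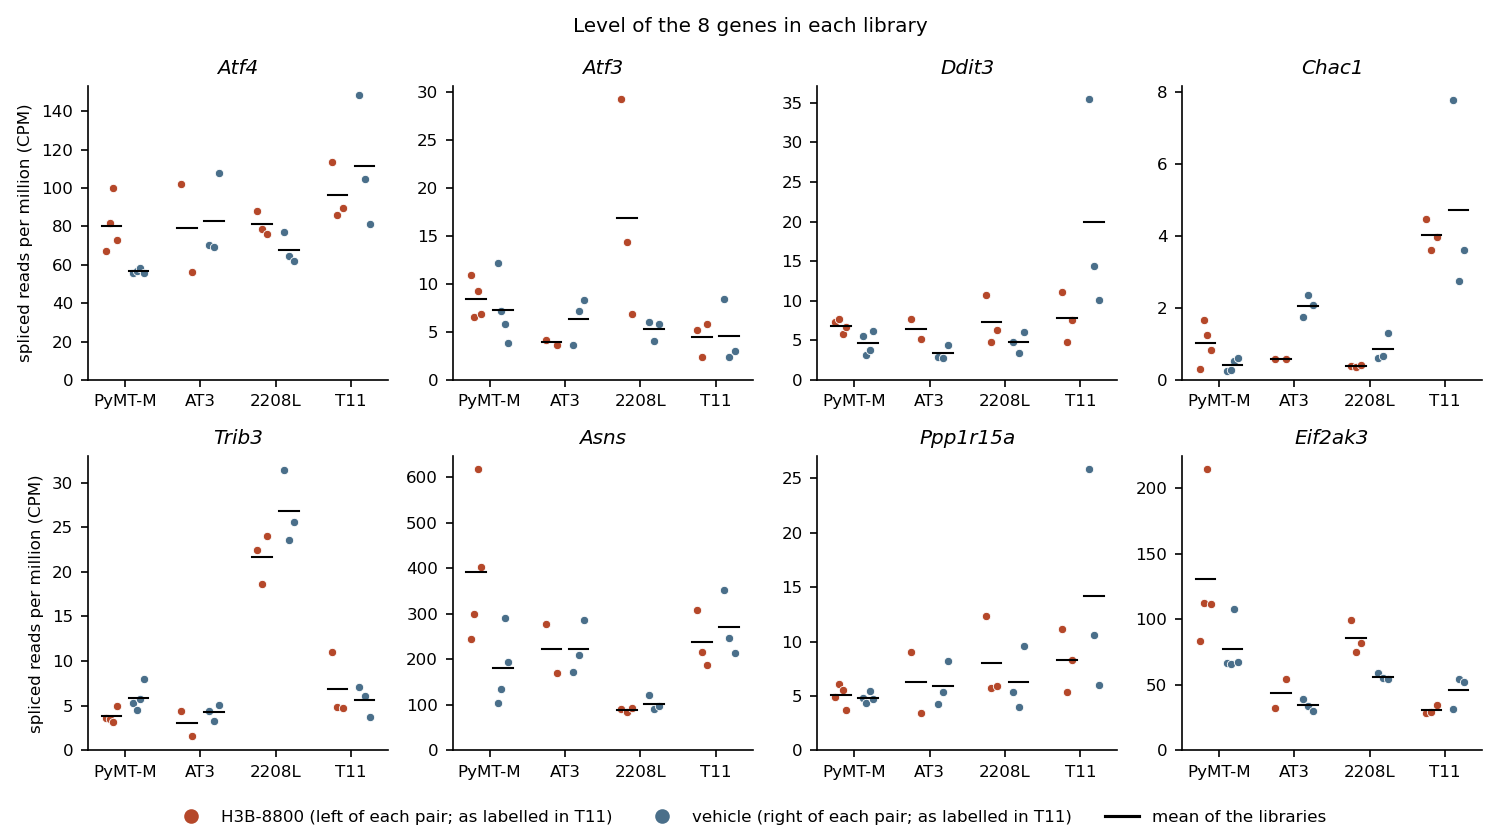
Level of the 8 genes in spliced reads (CPM, linear axes that start at 0) in each of the 25 libraries, with H3B-8800 in red left of vehicle in blue for each model, T11 as labelled, and bars at group means. Atf4 separates by treatment in PyMT-M, the highest Asns value (619 CPM) is a PyMT-M tumor with H3B-8800, and Trib3 is highest in 2208L in both groups.

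Atf3, a stress-induced factor that represses as well as activates, rose in 2208L. It had 29.3, 14.4 and 6.90 CPM with H3B-8800, against 6.04, 4.03 and 5.83 CPM with vehicle. The groups did not overlap, but the H3B-8800 tumors spread widely and the lowest lay close to the vehicle range. The log2 change was 1.67 (SE 0.53, edgeR adjusted p = 0.0470), a fold of 3.18. The call was lost in 5 of 6 fits that left out a library: 1.01 (adjusted p = 0.303) without H3B-8800 replicate 1, 1.77 without H3B-8800 replicate 2, and 1.79, 1.53 and 1.74 without vehicle replicate 1, 2 and 3. It was also lost with no filter on low counts (adjusted p = 0.0559), with the median over introns as level (0.0622), with 2208L alone in the fit (0.0743) and without the libraries with muscle or B cell markers (0.137). In 2208L the macrophage and B cell marker sums were higher in all 3 H3B-8800 tumors than in any vehicle tumor. In PyMT-M, Atf3 had 10.9, 6.57, 9.28 and 6.88 CPM with H3B-8800 and 12.2, 7.18, 5.86 and 3.89 CPM with vehicle, ranges that overlapped (log2 change 0.20). In AT3 it had 4.17 and 3.66 CPM with H3B-8800 and 3.65, 7.18 and 8.29 CPM with vehicle (-0.70), also overlapping.

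Ddit3, which encodes CHOP, the factor tied to cell death under lasting stress, had higher H3B-8800 means in each of the 3 models outside T11 and passed only in their average. In PyMT-M it had 7.35, 7.64, 5.74 and 6.66 CPM with H3B-8800 and 5.54, 3.14, 3.81 and 6.23 CPM with vehicle (log2 change 0.55, adjusted p = 0.279). In AT3 it had 7.65 and 5.20 CPM with H3B-8800 and 2.94, 2.71 and 4.42 CPM with vehicle, with no overlap, and its change of 0.93 (SE 0.47) had an adjusted p of 0.415. In 2208L it had 10.8, 4.84 and 6.36 CPM with H3B-8800 and 4.84, 3.44 and 6.03 CPM with vehicle (0.62). The average over the 3 models was 0.70 (SE 0.24, adjusted p = 0.0401). It lost its call in 10 of 19 fits that left out a library, and was lowest at 0.57 (adjusted p = 0.104) without 2208L H3B-8800 replicate 1. The call was also lost with levels from all overlapping reads (adjusted p = 0.0560) and without the libraries with muscle or B cell markers (0.134).

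The T11 libraries went the other way by label. Ddit3 had 11.1, 4.84 and 7.61 CPM in those labelled H3B-8800 and 35.5, 14.4 and 10.1 CPM in those labelled vehicle. The log2 change was -1.35 (SE 0.41, edgeR adjusted p = 0.0375), 2.54-fold lower under the H3B-8800 label. Labelled vehicle replicate 1 stood far above the rest. Without it the change was -0.65 (adjusted p = 0.278), and the call was also lost without labelled H3B-8800 replicate 2 (-1.06) or 3 (-1.29). It was lost too with no filter on low counts (adjusted p = 0.0514), with all overlapping reads (0.0940), with T11 alone in the fit (0.266) and without the libraries with muscle or B cell markers (0.134). Of the 7 bZIP partner genes measured, 2 rose in PyMT-M, where 10.2% of all genes rose. These were Atf5, a factor translated like ATF4 (0.61, adjusted p = 0.0402), and Nfe2l2, which encodes the oxidative stress factor NRF2 (0.55, adjusted p = 0.0374). Atf5 also rose in 2208L (0.91, SE 0.25, adjusted p = 0.0259), to 17.0 ± 2.55 CPM with H3B-8800 against 9.07 ± 0.351 CPM with vehicle (SD, n = 3 each).

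Asns, which makes asparagine from aspartate and glutamine, is a standard ATF4 target. Chac1, a glutathione-degrading enzyme downstream of ATF4, ATF3 and CHOP, rose beside it in PyMT-M, and Atf3 rose in 2208L. Their promoters are shown because ATF4 is known to bind the C/EBP-ATF response element, here searched as TGATGNAA on either strand in the 300 bases from 250 before to 50 after each start (RefSeq, GRCm38.p6). Each line gives 80 bases in the gene's direction with the match in capitals. The genes lie on the minus strand of chromosome 6 (chr6:7693210-7693289, Asns), the plus strand of chromosome 2 (chr2:119351013-119351092, Chac1) and the minus strand of chromosome 1 (chr1:191183400-191183479, Atf3).
Asns: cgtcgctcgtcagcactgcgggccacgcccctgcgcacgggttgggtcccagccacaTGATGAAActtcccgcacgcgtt
Chac1: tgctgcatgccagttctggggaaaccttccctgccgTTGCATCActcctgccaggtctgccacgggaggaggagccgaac
Atf3: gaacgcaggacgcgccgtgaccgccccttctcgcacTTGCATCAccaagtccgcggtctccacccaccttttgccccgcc

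The match lay 23 bases before the start in Asns, read on the gene's strand, and 193 and 110 bases before it in Chac1 and Atf3, read on the opposite strand. Trib3 held it 15 bases after its start, on the opposite strand, so 4 of 8 promoters had it, against 3.97% of 32851 promoters. The cAMP response element TGACGTCA was found in Ppp1r15a of the 8 genes and in 1.79% of promoters. The long form of the endoplasmic reticulum stress response element was found in none of the 8 and in 0.119% of promoters. A match is a run of letters in a window and was not tested as a binding site. The genes were chosen from a pathway that holds known ATF4 targets, so the count tells nothing about H3B-8800.

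Asns had the smallest adjusted p of the 8 genes in PyMT-M. Its H3B-8800 tumors had 244, 299.8, 619 and 404 CPM and its vehicle tumors 104, 134, 290.1 and 194 CPM. The 2 groups overlapped, and replicate 3 was the highest of each. The mean was 392 ± 165 CPM with H3B-8800 and 181 ± 82.1 CPM with vehicle (SD, n = 4 each), a log2 change of 1.12 (SE 0.30, edgeR adjusted p = 0.00975) and a fold of 2.17. Without H3B-8800 replicate 3 the change was 0.81 (adjusted p = 0.0593), and with PyMT-M alone in the fit the adjusted p was 0.0517. All 11 exon junctions of the gene had a higher H3B-8800 mean.

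No such change was seen in the other models. AT3 had 277 and 170.5 CPM with H3B-8800 and 172, 209 and 286 CPM with vehicle (log2 change 0.01). 2208L had 90.5, 85.0 and 92.5 CPM with H3B-8800 and 122, 90.02 and 96.9 CPM with vehicle (-0.20). The T11 libraries labelled H3B-8800 had 309.5, 217 and 187 CPM and those labelled vehicle 353, 248 and 214 CPM. The effect in PyMT-M exceeded that in AT3 by 1.11 (SE 0.49, adjusted p = 0.279) and that in 2208L by 1.32 (SE 0.46, adjusted p = 0.136), neither past the test.

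Genes of the amino acid programme moved in both directions. Of 12 biosynthesis enzymes under ATF4, Asns among them, 2 rose and 3 fell in PyMT-M. There 10.2% of all genes rose and 14.6% fell, and the list's median was -0.10. The 2 that rose were Asns and Pycr1. Pycr1, a proline-forming enzyme, rose to 70.2 ± 33.5 CPM with H3B-8800 against 29.8 ± 14.0 CPM with vehicle (SD, n = 4 each; log2 change 1.24, SE 0.30, edgeR adjusted p = 0.00517). Psat1, of serine synthesis, fell by 0.60 (adjusted p = 0.0287), Cth, of cysteine synthesis, by 1.02 and Gpt2, a transaminase, by 0.65. In 2208L the list's median was -0.57 and Aldh18a1, of proline synthesis, fell by 0.82 (adjusted p = 0.0111). Of 9 amino acid transporters, 4 fell and 0 rose in PyMT-M, against the same 14.6% and 10.2% of all genes, with a median of -0.46. Slc1a4, a neutral amino acid carrier, fell to 4.22 ± 1.32 CPM with H3B-8800 against 12.8 ± 5.72 CPM with vehicle (-1.60, SE 0.29, adjusted p = 0.00047). Slc7a3 fell by 2.29 and Slc38a2 by 0.98. Slc7a5, the large neutral amino acid carrier, fell in 2208L to 96.4 ± 21.0 CPM with H3B-8800 against 187 ± 11.7 CPM with vehicle (SD, n = 3 each; -0.95, adjusted p = 0.00406). By label it rose in T11 (1.30, adjusted p = 0.000222). Of 13 tRNA synthetases and related genes, Aars (0.72) and Nars (0.39) rose and Iars (-0.53) and Cars (-0.63) fell in PyMT-M, all past the test, where 10.2% and 14.6% of all genes did.

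**Figure D3:**
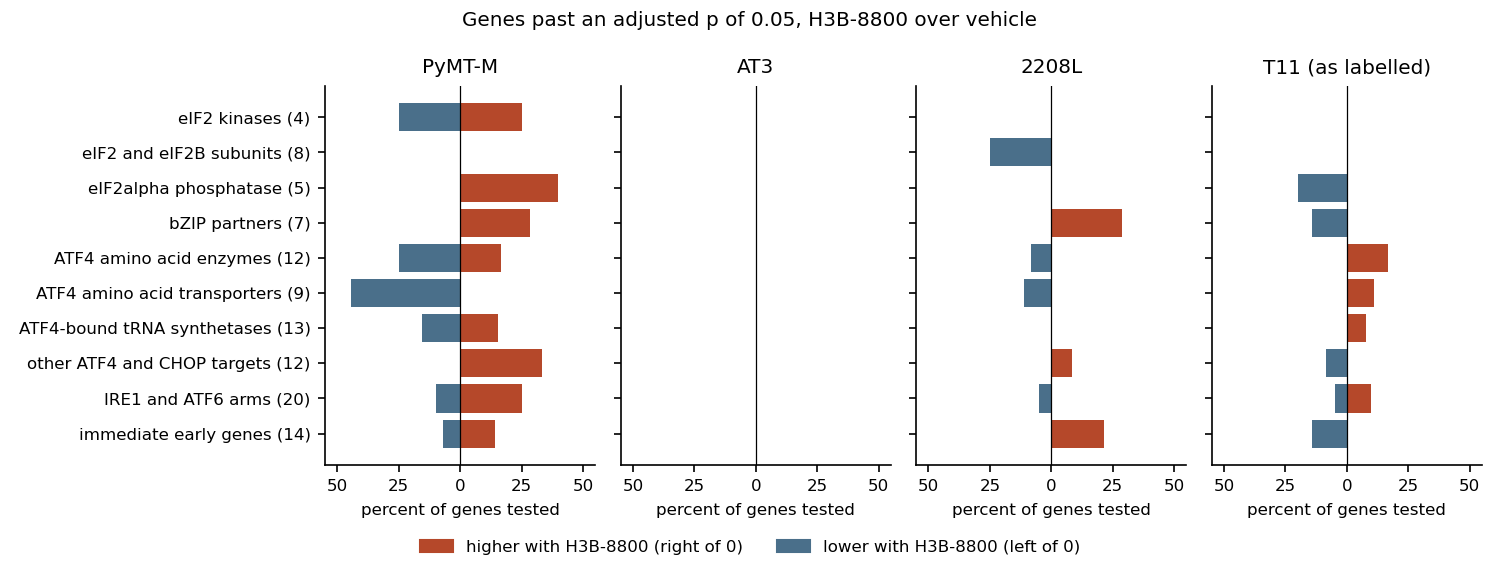
Percent of tested genes past an edgeR adjusted p of 0.05 with H3B-8800 over vehicle in 10 lists (rows, with the number tested) for each model (panels; T11 as labelled), higher to the right of 0 in red and lower to the left in blue. In PyMT-M the enzymes and synthetases have bars on both sides and the transporters only on the lower side, and AT3 has no bar.

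Chac1 was the least abundant member outside T11, and its reads are given for that reason. In PyMT-M the H3B-8800 tumors had 4, 25, 16 and 11 spliced reads and the vehicle tumors 4, 4, 7 and 7. That is 0.291, 1.68, 1.26 and 0.823 CPM with H3B-8800 against 0.244, 0.273, 0.512 and 0.605 CPM with vehicle, so 3 of 4 H3B-8800 tumors lay above all vehicle tumors and 1 lay among them. The log2 change was 1.32 (SE 0.47, edgeR adjusted p = 0.0459), a fold of 2.49. The call was lost in 6 of 8 fits that left out a library: 0.95 (adjusted p = 0.176), 1.20 and 1.40 without H3B-8800 replicate 2, 3 and 4, and 1.17, 1.21 and 1.45 without vehicle replicate 1, 2 and 3. It was also lost with no filter on low counts (adjusted p = 0.0508), with the median over introns as level (0.0821), without the T11 libraries (0.0551), with PyMT-M alone in the fit (0.132) and without the libraries with muscle or B cell markers (0.0830).

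Chac1 means were lower with H3B-8800 in AT3 and 2208L, though neither difference passed the test. AT3 had 5 and 6 reads with H3B-8800 and 22, 27 and 23 with vehicle, and 2208L had 4, 4 and 6 with H3B-8800 and 6, 8 and 13 with vehicle. In CPM neither pair of groups overlapped, but the log2 changes of -1.81 (SE 0.63, adjusted p = 0.215) and -1.15 (adjusted p = 0.201) did not pass. The T11 libraries labelled H3B-8800 had 57, 71 and 86 reads and those labelled vehicle 68, 44 and 50. The change in PyMT-M exceeded that in AT3 by 3.13 (SE 0.78, adjusted p = 0.0539) and that in 2208L by 2.47 (SE 0.74, adjusted p = 0.0860), the nearest any member came to a called difference between these models. In edgeR none of the 8 was called in either difference, or in 2208L against AT3, where 1.1%, 1.92% and 0.0154% of all genes were. At an unadjusted p under 0.05 edgeR gave 2, 3 and 1 of the 8, where 2037, 2172 and 1904 of 13001 genes passed. Chac1 did pass for PyMT-M against AT3 in DESeq2 (3.21, adjusted p = 0.0154), which called no other member in the 3 differences. With levels from all overlapping reads edgeR called Chac1 against AT3 (3.22, adjusted p = 0.0363) and against 2208L (2.82, adjusted p = 0.0381).

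Trib3, a pseudokinase that feeds back on ATF4 and CHOP, was higher in each 2208L tumor than in any tumor of the other models, and its level was not called by treatment in any model. In 2208L it had 22.4, 18.7 and 24.0 CPM with H3B-8800 and 31.4, 23.6 and 25.5 CPM with vehicle. PyMT-M had 3.64, 3.49, 3.22 and 4.94 CPM with H3B-8800 and 5.36, 4.58, 5.78 and 7.95 CPM with vehicle. AT3 had 4.40 and 1.64 CPM with H3B-8800 and 4.36, 3.33 and 5.14 CPM with vehicle. Its H3B-8800 means were lower in all 3 models, with log2 changes of -0.63 (adjusted p = 0.138), -0.52 and -0.31 in PyMT-M, AT3 and 2208L and an average of -0.48 (adjusted p = 0.0922). The average passed without the T11 libraries (adjusted p = 0.0469). Of 14 other targets of ATF4 and CHOP, Chac1 and Trib3 among them, 12 were tested, and 4 rose and 0 fell in PyMT-M, where 10.2% of all genes rose and 14.6% fell. The list's median there was -0.08, opposite in sign to the called genes. Sesn2, a leucine sensor that restrains mTORC1, rose to 60.3 ± 7.51 CPM with H3B-8800 against 24.6 ± 4.81 CPM with vehicle in PyMT-M (SD, n = 4 each; 1.29, SE 0.22, adjusted p = 0.00032). It rose in 2208L as well, to 8.38 ± 1.17 CPM against 3.71 ± 0.795 CPM (SD, n = 3 each; 1.18, adjusted p = 0.0114). Map1lc3b, which encodes the autophagy protein LC3B, rose by 0.60 in PyMT-M (adjusted p = 0.00274).

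Ppp1r15a, whose product GADD34 ends the response, showed no called change. It had 4.95, 6.10, 5.50 and 3.74 CPM with H3B-8800 and 4.81, 4.38, 5.42 and 4.76 CPM with vehicle in PyMT-M (log2 change 0.07). In AT3 it had 9.04 and 3.47 CPM with H3B-8800 and 4.28, 5.34 and 8.20 CPM with vehicle, and in 2208L 12.3, 5.72 and 5.96 CPM with H3B-8800 and 5.34, 4.03 and 9.55 CPM with vehicle. The groups overlapped in each. The T11 libraries labelled H3B-8800 had 11.2, 5.40 and 8.30 CPM and those labelled vehicle 25.9, 10.6 and 5.97 CPM, where labelled vehicle replicate 1 was again the highest, as for Ddit3 and Atf4. Its constitutive partner Ppp1r15b, which encodes CReP, rose in PyMT-M to 19.3 ± 4.27 CPM with H3B-8800 against 9.98 ± 2.42 CPM with vehicle (SD, n = 4 each; 0.95, SE 0.22, edgeR adjusted p = 0.00402). The catalytic subunit gene Ppp1cb rose by 0.55 (adjusted p = 0.0313), so 2 of the 5 phosphatase genes rose and none fell in PyMT-M, where 10.2% of all genes rose and 14.6% fell.

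The neighbouring arms of the unfolded protein response run through IRE1 and ATF6. Of 20 of their genes, 5 rose and 2 fell in PyMT-M, where 10.2% of all genes rose and 14.6% fell, and the median was 0.26. Dnajb9, an endoplasmic reticulum co-chaperone, rose to 60.6 ± 21.8 CPM with H3B-8800 against 25.1 ± 9.93 CPM with vehicle (SD, n = 4 each; log2 change 1.27, SE 0.24, edgeR adjusted p = 0.000742). Xbp1, the factor IRE1 splices, rose by 0.85 (adjusted p = 0.000785), and Syvn1, the ubiquitin ligase of degradation from the endoplasmic reticulum, fell by 1.05 (adjusted p = 0.00048). Syvn1 fell in 2208L too, by 1.00 (adjusted p = 0.00723), and by label it rose in T11 (1.08, adjusted p = 0.00366), where Xbp1 fell by 0.80. Immediate early genes, which respond to handling and to growth signals, were 14 tested genes, of which 2 rose and 1 fell in PyMT-M (10.2% and 14.6% of all genes) and 3 rose in 2208L (4.67%). They included Klf4, which rose in 2208L (2.09, adjusted p = 0.00657) and in PyMT-M (1.59, adjusted p = 0.00708). Klf2 rose in 2208L (1.60, adjusted p = 0.0193) and fell in PyMT-M (-1.58, adjusted p = 0.0036). Klf6 rose in 2208L beside Atf3 (1.27, adjusted p = 0.0292), and Fosb rose in PyMT-M (2.19, adjusted p = 0.0331). The part of handling in Atf3 was not tested. In AT3 no gene of the 10 lists passed.

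Vehicle tumors of the models differed in some of these genes. The 2208L tumors grew in Balb/c mice and those of PyMT-M and AT3 in C57BL/6, so model and strain cannot be told apart in comparisons with 2208L. Trib3 averaged 26.9 ± 4.08 CPM in 2208L (n = 3), against 4.28 ± 0.909 CPM in AT3 (n = 3; SD), a fold of 6.27 (log2 difference 2.65, SE 0.36). PyMT-M averaged 5.92 ± 1.45 CPM (n = 4), 2.18 lower than 2208L on the log2 scale (SE 0.32). No 2208L vehicle tumor overlapped with those of the other models. Asns was lower in 2208L than in AT3 by 1.11 (SE 0.35, edgeR adjusted p = 0.0124), with 122, 90.02 and 96.9 CPM in 2208L and 172, 209 and 286 CPM in AT3. Without AT3 vehicle replicate 3 that difference was -0.89 (adjusted p = 0.0660). Asns was higher in PyMT-M than in 2208L by 0.81 (SE 0.33, adjusted p = 0.0481), with overlap. That call was lost without PyMT-M vehicle replicate 3 (0.49) or 4 (0.77) and without 2208L vehicle replicate 1 (0.94), 2 (0.72) or 3 (0.77). It was lost as well with RLE size factors (adjusted p = 0.0528), no filter on low counts (0.0575), all overlapping reads (0.0875), no T11 libraries (0.0513), only these models in the fit (0.0615) and no libraries with muscle or B cell markers (0.0584). Eif2ak3 was higher in PyMT-M than in AT3 by 1.16 (SE 0.28, adjusted p = 0.00104), with no overlap, and Chac1 was lower by 2.33 (SE 0.49). Atf4 was lower by 0.54 (SE 0.21, adjusted p = 0.0299), with -0.30 (adjusted p = 0.254) without AT3 vehicle replicate 3 and -0.54 (adjusted p = 0.052) without PyMT-M vehicle replicate 4. Of the 8, 3 were called between PyMT-M and AT3, 2 between PyMT-M and 2208L and 2 between 2208L and AT3, where 60%, 45.5% and 45.2% of all genes were. Epithelial marker sums were lowest in AT3 and T11, and their part in these differences was not tested.

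Set per listed exon junction, so that genes of different length compare, Atf4 was the most abundant member in all 8 groups, with 28.3 to 55.8 CPM per junction. In PyMT-M with H3B-8800 its 40.2 ± 7.11 CPM per junction did not differ beyond the SD from the 35.6 ± 15.0 of Asns. Asns came next in all 8 groups, at 8.12 to 35.6 CPM per junction, though within the SD of Trib3 in both 2208L groups. Ddit3 lay at 3.36 to 19.99 and was the third in 5 of 8 groups, with Eif2ak3 above it in both PyMT-M groups and Trib3 in 2208L vehicle tumors. The gap between Asns and Ddit3 was within the SD in 2208L with H3B-8800 and in T11 labelled vehicle. Eif2ak3 lay at 1.93 to 8.16, Trib3 at 1.01 to 8.95, Ppp1r15a at 2.42 to 7.07 and Atf3 at 1.30 to 5.63 CPM per junction. Neighbours among these mid-level genes often overlapped within their SD. Chac1 lay at 0.19 to 2.35 CPM per junction and was lowest in every group outside T11. Likeness of pattern was measured as the root mean square difference of log2 levels over the 8 group means, each gene centred, from 25 libraries. Scaf8 was closest to Atf4 (0.0581), Rnf11 to Eif2ak3 (0.133), Iws1 to Ppp1r15a (0.106), Nr5a2 to Trib3 (0.182), Zscan20 to Asns (0.212), Nr1d1 to Ddit3 (0.228), Maml2 to Atf3 (0.232) and Ppargc1b to Chac1 (0.436). Among the members, Ppp1r15a ranked 49 of 13001 genes in likeness to Ddit3 (0.395).

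Averaged over PyMT-M, AT3 and 2208L, 16 of the 28 tested introns were retained more with H3B-8800, where 58.7% of all introns were called. The median log2 change of the 28 was 1.16, close to the 1.25 of all introns. Intronic reads were tested with the gene's own spliced reads as offset, so a change that both share does not count as retention. Fewer spliced reads beside unchanged intronic reads do count as a rise. In PyMT-M 14 of the 28 tested introns rose and 1 fell, where 54.7% and 5.67% of all introns did, 60.3% in all. In AT3 3 rose and 0 fell, against 19.7% of all introns called, and in 2208L 4 rose and 0 fell, against 21.5%. The median log2 change over the 28 was 1.59 in PyMT-M, 1.09 in AT3 and 1.03 in 2208L, where all introns had 1.57, 1.10 and 1.07. In the average of these models 0 of the 28 fell and 12 were not called. By label 3 of the 28 fell in T11 and 0 rose, against 20.4%. Chac1 had no intron with enough reads to test.

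**Figure D4:**
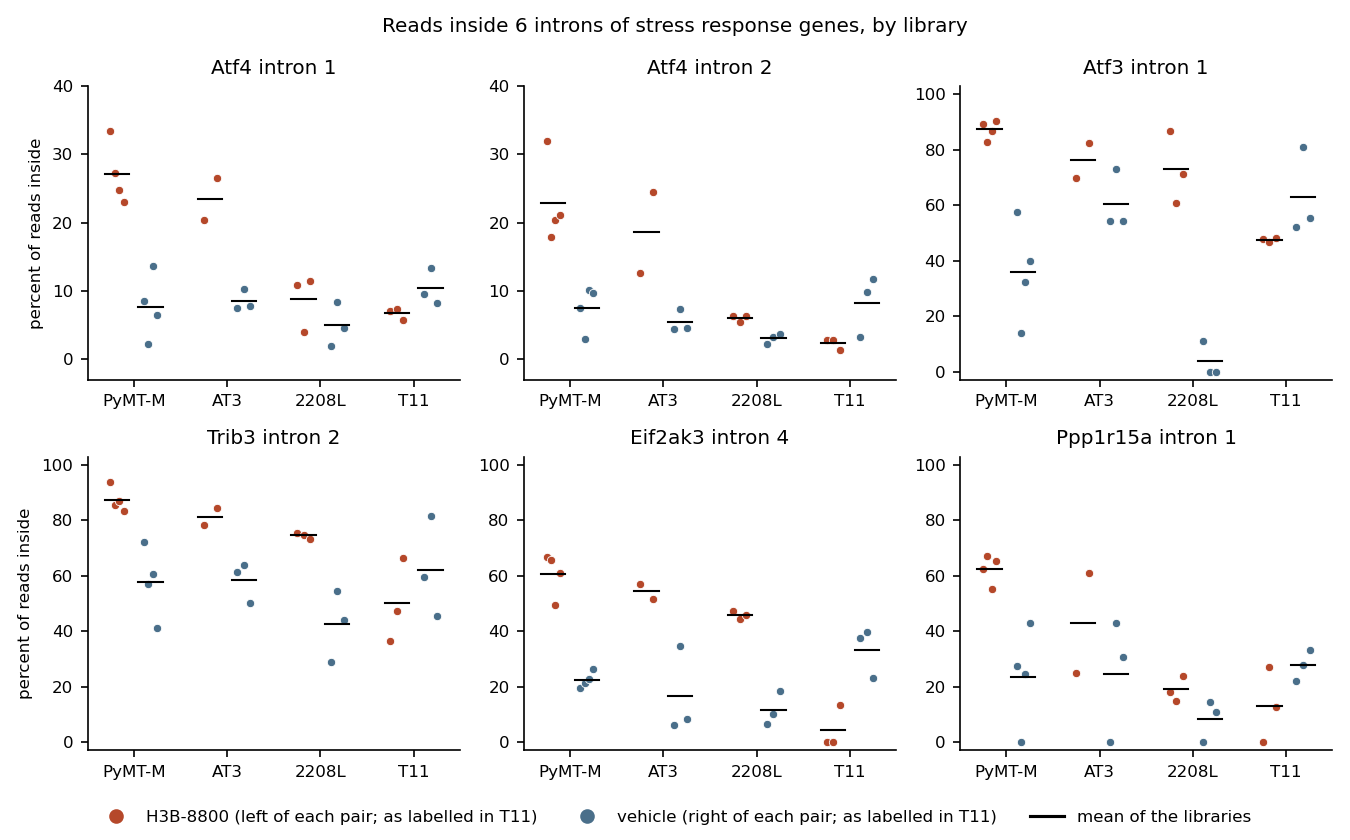
Percent of overlapping reads that lie inside the intron for 6 introns in each library, with H3B-8800 in red left of vehicle in blue, T11 as labelled, and bars at group means. The 6 were picked from the 14 of 28 tested introns called higher in PyMT-M, where the treatments do not overlap in any of them. In T11 Eif2ak3 intron 4 is lower in libraries labelled H3B-8800 (0% to 13.6%) than in those labelled vehicle (23.0% to 39.6%).

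Asns intron 6 was the one member intron of its gene called in PyMT-M, AT3 and 2208L alike. It spans chr6:7680212-7681249 (mm10), 1038 bases that hold no annotated exon. In PyMT-M its retention was 57.1%, 62.1%, 52.1% and 55.4% with H3B-8800 and 12.8%, 5.58%, 13.3% and 16.5% with vehicle. AT3 had 37.3% and 56.3% with H3B-8800 and 12.7%, 30.0% and 13.6% with vehicle. 2208L had 42.9%, 28.3% and 36.7% with H3B-8800 and 4.03%, 7.26% and 15.9% with vehicle. No groups overlapped in any of the 3 models. The log2 changes were 3.21 (SE 0.45, edgeR adjusted p = 3.7e-07) in PyMT-M, 2.04 (SE 0.53, adjusted p = 0.00637) in AT3 and 2.37 (SE 0.54, adjusted p = 0.0021) in 2208L. In AT3 it was 1.24 (adjusted p = 0.262) without H3B-8800 replicate 2. By label the T11 libraries ran opposite, with 7.22%, 10.04% and 14.0% in those labelled H3B-8800 and 26.3%, 38.5% and 27.1% in those labelled vehicle (-1.95, adjusted p = 0.00429).

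Intron 5 of Asns (chr6:7681378-7681933) rose in PyMT-M too, with 32.2%, 23.8%, 22.9% and 21.8% with H3B-8800 and 4.03%, 3.23%, 1.53% and 3.15% with vehicle (log2 change 3.51, SE 0.68, edgeR adjusted p = 4.92e-05). Intron 4 held 7.16% ± 1.36 with H3B-8800 and 0.613% ± 0.781 with vehicle (SD, n = 4 each; 3.85, SE 0.92, adjusted p = 0.000563). Intron 8 rose by 1.73 (adjusted p = 0.00393), intron 9 passed only in the average of the 3 models (1.03, adjusted p = 0.00979), and introns 1, 2, 3 and 7 were not called. The spliced reads of the gene also rose in PyMT-M. Intron 4 is shown because it was called and an annotated retained-intron transcript covers it (chr6:7682036-7682270, minus strand, GENCODE M21, in the gene's direction). Capitals mark its last 40 bases, which run to the acceptor and in which the polypyrimidine tract lies. Of these 65% were pyrimidines.
Asns intron 4: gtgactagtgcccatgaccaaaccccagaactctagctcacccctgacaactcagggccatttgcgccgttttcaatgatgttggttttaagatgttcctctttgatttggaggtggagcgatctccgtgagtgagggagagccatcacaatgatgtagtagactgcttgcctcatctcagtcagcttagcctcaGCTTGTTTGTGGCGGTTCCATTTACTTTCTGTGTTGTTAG

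**Figure D5:**
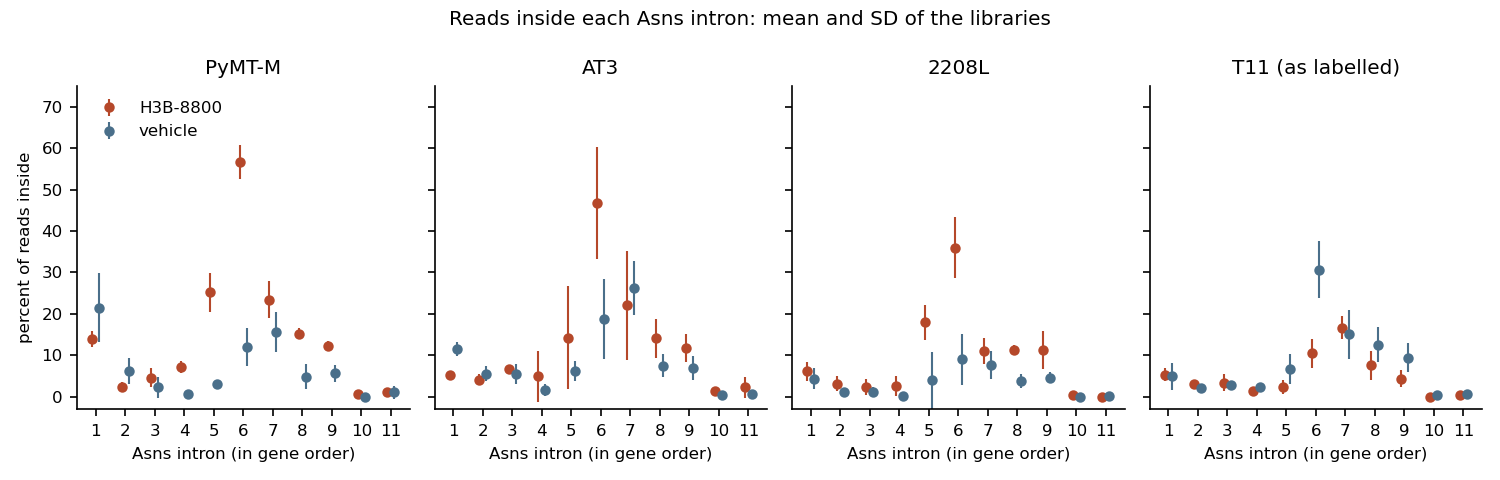
Percent of overlapping reads that lie inside each of the 11 Asns introns (x axis, in gene order), as the mean and SD of the libraries with H3B-8800 in red and vehicle in blue, T11 as labelled. Intron 6 stands out in PyMT-M, at 56.6% ± 4.19 with H3B-8800 against 12.03% ± 4.60 with vehicle.

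Both introns of Atf4 rose in PyMT-M and AT3. They lie at chr15:80255686-80256206 and chr15:80256522-80256633 on the plus strand, both covered by an annotated retained-intron transcript. Intron 1 had 33.5%, 27.3%, 24.8% and 23.0% with H3B-8800 and 8.52%, 2.25%, 13.6% and 6.47% with vehicle in PyMT-M (log2 change 2.11, SE 0.48, edgeR adjusted p = 0.000348). Intron 2 had 32.0%, 17.9%, 20.4% and 21.1% with H3B-8800 and 7.54%, 2.97%, 10.1% and 9.66% with vehicle (1.85, SE 0.44, adjusted p = 0.000531). In both, each H3B-8800 tumor lay above each vehicle tumor. In AT3 the changes were 1.74 (adjusted p = 0.0352) and 1.99 (adjusted p = 0.0106), and both calls were lost without H3B-8800 replicate 2 (1.24 and 1.46) or vehicle replicate 1 (1.66 and 1.84), that of intron 1 also without vehicle replicate 3 (1.63). In AT3 the call of intron 1 was lost too with library size as offset (adjusted p = 0.0556), with AT3 alone in the fit (0.0653) and without the libraries with muscle or B cell markers (0.0538). In 2208L they were 1.05 (adjusted p = 0.187) and 0.92 (adjusted p = 0.213), not called, though intron 2 had 6.37%, 5.48% and 6.41% with H3B-8800 against 2.29%, 3.26% and 3.69% with vehicle. The shorter intron 2 is printed whole, and intron 1 by its last 100 bases (chr15:80256107-80256206), from GENCODE M21 transcripts. Capitals mark the last 40 bases, of which 60% and 50% were pyrimidines, so the retained introns printed here differ in that measure.
Atf4 intron 2: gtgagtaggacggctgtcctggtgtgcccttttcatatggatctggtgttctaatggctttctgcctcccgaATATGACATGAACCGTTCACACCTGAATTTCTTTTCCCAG
Atf4 intron 1: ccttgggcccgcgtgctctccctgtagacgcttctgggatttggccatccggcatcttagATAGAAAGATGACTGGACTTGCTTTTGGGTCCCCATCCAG

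Intron 1 of Atf3 (chr1:191177475-191183092, 5618 bases) changed most in 2208L. It had 86.8%, 60.9% and 71.2% retention with H3B-8800 and 11.1%, 0% and 0% with vehicle, the vehicle values resting on 2 intronic reads beside 38 spliced reads in all. The fitted log2 change of 5.70 (SE 0.87, edgeR adjusted p = 3.25e-05) leans on those near-empty libraries. PyMT-M had 89.3%, 83.0%, 86.8% and 90.2% with H3B-8800 and 57.6%, 13.8%, 32.3% and 40% with vehicle (3.07, SE 0.52, adjusted p = 8.41e-06). AT3 had 70.0% and 82.5% with H3B-8800 and 54.2%, 73.1% and 54.2% with vehicle (1.40, adjusted p = 0.113), which overlapped.

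Intron 2 of Trib3 (chr2:152340008-152343036) had many intronic reads in vehicle tumors too, at 28.8% to 72.2% of overlapping reads in PyMT-M and 2208L. PyMT-M had 93.7%, 85.4%, 87.0% and 83.5% with H3B-8800 and 72.2%, 56.9%, 60.7% and 41.3% with vehicle (log2 change 2.17, SE 0.47, edgeR adjusted p = 0.000191). 2208L had 75.6%, 74.8% and 73.2% with H3B-8800 and 28.8%, 54.5% and 44.0% with vehicle (1.58, adjusted p = 0.0275). That call was lost without any of 5 libraries, at 1.24 (adjusted p = 0.153) without vehicle replicate 1, 1.59 without vehicle replicate 3, and 1.61, 1.52 and 1.59 without H3B-8800 replicate 1, 2 and 3. Retention rose here while the spliced level of Trib3 had lower means with H3B-8800. The intron holds an exon of another annotated transcript, so its reads can belong to that transcript.

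Intron 4 of Eif2ak3 (chr6:70878969-70881483, no annotated exon) separated the treatments in all 3 models. PyMT-M had 66.7%, 65.7%, 49.4% and 61.0% with H3B-8800 and 19.7%, 21.4%, 22.7% and 26.3% with vehicle (log2 change 2.62, SE 0.55, edgeR adjusted p = 0.000134). AT3 had 57.1% and 51.8% with H3B-8800 and 6.25%, 34.8% and 8.33% with vehicle (2.00, not called). 2208L had 47.4%, 44.3% and 46.0% with H3B-8800 and 6.45%, 10.3% and 18.5% with vehicle (2.48, SE 0.71, adjusted p = 0.0121), and 2.19 (adjusted p = 0.0697) without vehicle replicate 1. The T11 libraries labelled H3B-8800 had 0%, 0% and 13.6% and those labelled vehicle 37.5%, 39.6% and 23.0% (-2.81, adjusted p = 0.00733; -2.25, adjusted p = 0.0581, without labelled H3B-8800 replicate 2).

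Introns 5, 7, 10 and 14 of Eif2ak3 rose in PyMT-M by 1.41 to 2.49, those of 7, 10 and 14 losing their call when any of several libraries was left out. Without H3B-8800 replicate 1 they were 1.90, 1.25 and 1.08, with edgeR adjusted p-values of 0.0544, 0.129 and 0.129. Intron 7 was 1.91 without H3B-8800 replicate 4 and 1.71 and 1.53 without vehicle replicate 2 and 3. Intron 10 was 1.40 without vehicle replicate 1, and intron 14 was 1.41, 1.28 and 1.31 without vehicle replicate 1, 2 and 3. Without the libraries with muscle or B cell markers introns 7, 10 and 14 of Eif2ak3 had adjusted p-values of 0.113, 0.177 and 0.132, and with overlapping reads as offset introns 7 and 10 had 0.0627 and 0.0693. Intron 7 overlaps annotated exon sequence of Gm43292 on the opposite strand. Whether the counts kept the strands apart is not given, so reads there can belong to that gene. Intron 1 was the exception and fell, with 16.9%, 13.9%, 10.98% and 16.3% with H3B-8800 and 32.7%, 28.3%, 13.7% and 70.6% with vehicle in PyMT-M (-1.37, SE 0.60, adjusted p = 0.0478). Vehicle replicate 4 stood apart, and without it the change was -0.35 (adjusted p = 0.628). With library size as offset it was -0.58 (adjusted p = 0.388), and it missed the threshold with PyMT-M alone in the fit (0.0713) and without the libraries with muscle or B cell markers (0.192). The call was also lost without H3B-8800 replicate 1 (-1.44), 2 (-1.22) or 3 (-1.24). Exons of other annotated transcripts, among them Gm23346, lie in that intron, and reads of the 2 cannot be told apart there.

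Ppp1r15a intron 1 (chr7:45525392-45525994) had 62.5%, 67.1%, 55.2% and 65.5% with H3B-8800 and 27.3%, 0%, 24.4% and 42.9% with vehicle in PyMT-M (log2 change 2.51, SE 0.79, edgeR adjusted p = 0.00651), with no overlap. With overlapping reads as offset it was 1.44 (adjusted p = 0.0615). That intron holds an exon of another protein-coding transcript. The listed intron of Ddit3 (chr10:127295479-127295722) had 30.8%, 23.5%, 18.9% and 22.6% with H3B-8800 and 8.08%, 6.12%, 3.70% and 19.1% with vehicle in PyMT-M, where its change of 1.53 was not called (adjusted p = 0.0726). It passed in the average of the 3 models (1.34, SE 0.53, adjusted p = 0.0283), but not without AT3 vehicle replicate 1 (1.15) or 3 (1.23), 2208L vehicle replicate 1 (1.20) or 2208L H3B-8800 replicate 1 (0.76). In both genes the spliced level in PyMT-M was not called. In edgeR no member intron differed in its drug effect between PyMT-M, AT3 and 2208L, where 0.00576% (PyMT-M against AT3), 0.117% (PyMT-M against 2208L) and 0.00192% (2208L against AT3) of introns did. Against T11 as labelled, the drug effect differed for 3 of the 8 genes in PyMT-M, 1 in AT3 and 1 in 2208L, where 26.9%, 15.5% and 16.2% of all genes differed. For introns the counts were 12, 7 and 9 of 28, where 55.7%, 38.4% and 38.1% of all introns differed.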

How the data were processed

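Per the labels, 25 stranded libraries were made from polyA RNA of whole tumors. HISAT2 2.0.4 and the builds mm10 and hg38 are named in the submitters' processing notes. The counting tool is not given in the sources used here. The deposited files hold, for 1 transcript per gene, the authors' counts of reads inside each intron and overlapping it, and the authors' RPKM, which was recomputed from the counts and not tested. All coordinates are mm10.

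Gene levels were spliced counts. Genes at 1 CPM or more in at least 2 libraries were tested with edgeR 4.0.16 (R 4.3.3, limma 3.58.1; robust quasi-likelihood, TMM, 8 group means, Benjamini-Hochberg over all genes, threshold 0.05). Introns with means of at least 5 intronic and 10 spliced reads were tested with the gene's spliced counts as offset. On simulated data, made for PyMT-M and AT3, both tests estimated seeded changes with little bias, missed most of the smaller ones and called fewer in AT3. The members and lists were chosen with earlier results of these data known, and the lists came in part from earlier work on them. In each list up to 3 called genes with the smallest p are named, and all kinases and eIF2 and eIF2B subunits. Replicates are separate tumors, per the series' design text. Alternatives were other scaling, filters, offsets and tools (DESeq2 1.42.0), other sets of libraries, a replicate block and leaving out each library.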

Additional observations from a re-analysis of the deposited data

Results flagged for a closer look

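Within groups of 4 libraries, 2 of 72 sets of values held a library set apart from the others by Dixon's test at 95%, which chance flags in about 1 in 20. Eif2ak3 was at 108 CPM in PyMT-M vehicle replicate 3, where the other vehicle tumors had 66.1 to 67.3 CPM, and retention of Eif2ak3 intron 13 was 22.6% in PyMT-M vehicle replicate 2.

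All other flagged results are differences in drug effect between T11, taken by label, and another model, past an edgeR adjusted p of 0.05. Since retention in T11 ran opposite to its labels, the signs of these differences hold only if those labels do. For levels, the effect exceeded that in T11 in PyMT-M by 1.31 for Asns, 1.90 for Ddit3 and 1.34 for Eif2ak3 on the log2 scale, where 26.9% of all genes differed. For Ddit3 it did so by 2.28 in AT3 (15.5% of all genes) and by 1.96 in 2208L (16.2%).

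For retention, PyMT-M minus T11 differences were 3.37 for Atf3 intron 1, 2.75 and 3.78 for Atf4 introns 1 and 2, and 2.54 for Trib3 intron 2. They were 4.68, 5.12, 5.16, 2.68 and 2.27 for Asns introns 4, 5, 6, 8 and 9. Eif2ak3 intron 4 had 5.43, Eif2ak3 intron 1 had -2.70 and Ppp1r15a intron 1 had 3.81. Of all introns, 55.7% differed. AT3 minus T11 differences were 2.38 and 3.92 for Atf4 introns 1 and 2, 3.16, 3.99, 2.08 and 2.12 for Asns introns 5, 6, 8 and 9, and 4.81 for Eif2ak3 intron 4, where 38.4% of introns differed. 2208L minus T11 differences were 6.00 for Atf3 intron 1, 2.85 for Atf4 intron 2 and 1.94 for Trib3 intron 2. They were 3.92, 4.32, 2.42 and 2.47 for Asns introns 5, 6, 8 and 9, and -2.88 and 5.29 for Eif2ak3 introns 1 and 4, where 38.1% of introns differed.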

How the results depend on the processing

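The 3 gains in PyMT-M rest on 4 tumors a side, and Asns kept its call in more settings than Chac1 and Eif2ak3. Chac1 had 4 to 25 reads a tumor there, AT3 had 2 tumors with H3B-8800, and Ddit3 was read through 1 intron. The fits in the other settings share most of their libraries, so a sign kept across them is not a separate check. Of 2186 values for the 8 genes over all fits, 102 had another sign than the main value, 0 of them for a called change. Among 2117 intron values 86 did, 1 of them for a called change, Trib3 intron 3 in the average of the 3 models, which ran from -0.39 (edgeR adjusted p = 0.841) without AT3 H3B-8800 replicate 2 to 2.94 without AT3 vehicle replicate 3. The cause of the shifts below was not tested, including those where fewer libraries or introns entered.

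The main numbers of genes called were 1525 in T11, 3224 in PyMT-M, 39 in AT3, 1344 in 2208L and 3103 in the average. Of the 8 genes 1, 3, 0, 1 and 2 were called. For drug effects the main numbers were 143 genes for PyMT-M minus AT3, 250 for PyMT-M minus 2208L, 2 for 2208L minus AT3, 3493 for PyMT-M minus T11, 2014 for AT3 minus T11 and 2106 for 2208L minus T11. With DESeq2, AT3 had 273 genes, and PyMT-M minus AT3, PyMT-M minus 2208L and 2208L minus AT3 had 497, 677 and 221. Of the 8 genes, 1 then passed for PyMT-M minus AT3 and 2 for 2208L minus T11. With RLE size factors in edgeR 2 passed for 2208L minus T11 and 1 between vehicle tumors of PyMT-M and 2208L. A filter of 5 CPM left 0 genes for 2208L minus AT3 and gave 2 of the 8 for 2208L minus T11. With no filter AT3 had 24 genes, and of the 8, 0 passed in T11, 0 in 2208L and 1 between vehicle tumors of PyMT-M and 2208L.

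With levels from all overlapping reads, AT3 had 75 genes and 2208L minus AT3 had 5. Of the 8, 0 then passed in T11, 1 for PyMT-M minus AT3, 1 for PyMT-M minus 2208L and 0 for 2208L minus T11. With the median over introns as level, AT3 had 9 genes and PyMT-M minus AT3, PyMT-M minus 2208L, 2208L minus AT3 and AT3 minus T11 had 38, 149, 1 and 1334. Of the 8, 0 passed in 2208L and 2 for 2208L minus T11. Without the T11 libraries, AT3 had 72 genes, PyMT-M minus AT3 had 251, PyMT-M minus 2208L had 380 and 2208L minus AT3 had 14, and 1 of the 8 differed between vehicle tumors of PyMT-M and 2208L.

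With only the compared models in the fit, T11 had 13 genes, AT3 had 0 and 2208L had 2396. PyMT-M minus AT3, PyMT-M minus 2208L, 2208L minus AT3 and AT3 minus T11 had 60, 479, 29 and 518. Of the 8, 0 passed in T11, 1 in PyMT-M, 0 for AT3 minus T11, and 1 and 4 between vehicle tumors of PyMT-M and 2208L and of 2208L and AT3. Introns called in AT3 were 6489, against 10269 in the main fit. Leaving out the 6 libraries with muscle or B cell markers, chosen after the data were seen, gave 352 genes in T11, 1748 in PyMT-M, 0 in AT3, 343 in 2208L and 1891 in the average. It gave 34, 52, 1769, 545 and 905 for PyMT-M minus AT3, PyMT-M minus 2208L, and PyMT-M, AT3 and 2208L minus T11. Of the 8, 0 passed in T11, 0 in 2208L, 1 in the average, 1 between vehicle tumors of PyMT-M and 2208L, and 0 for AT3 or 2208L minus T11. Introns called fell to 3646 in T11, against 10630, and 2726 in 2208L, against 11192, with 1 and 2 member introns. Introns without an annotated exon, fewer by construction, gave 6318, 18814, 6476, 6669 and 18492 calls in T11, PyMT-M, AT3, 2208L and the average. These are calls of the main fit limited to such introns, so no call of a member intron could change.

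Replicate numbers are not said to pair tumors. Correlations of deviations from group means cannot settle whether they do, since the deviations cancel out within each small group. In PyMT-M those of same-numbered tumors ran from 0.039 to 0.369. Correlations of same-numbered tumors ran from -0.364 to 0.369, and 1 of 3 H3B-8800 libraries in T11, 1 of 4 in PyMT-M, 0 of 2 in AT3 and 0 of 3 in 2208L correlated best with its own number. With a replicate block, genes called were 949 in T11, 9 in AT3 and 820 in 2208L, and 14, 124 and 0 for PyMT-M minus AT3, PyMT-M minus 2208L and 2208L minus AT3. Of the 8, 0 passed in 2208L, 1 for PyMT-M minus 2208L (Asns, 1.33, adjusted p = 0.0175) and 2 for 2208L minus T11. Under the block Atf3 in 2208L had an adjusted p of 0.0654 and Chac1 in PyMT-M of 0.0918, and Atf4 in PyMT-M passed (0.0367), as did Asns in the average (0.0187) and between vehicle tumors of PyMT-M and AT3 (0.0406). In AT3 3452 introns and 1 member intron passed under the block.

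Leaving out each library in turn gave 804 to 1683 genes in T11, 2263 to 3133 in PyMT-M, 7 to 464 in AT3, 394 to 1455 in 2208L and 2603 to 3096 in the average. Of the 8 genes it gave 0 to 1, 0 to 3, 0 to 0, 0 to 1 and 1 to 2. Introns ran 5713 to 12562, 27745 to 31526, 2022 to 11999, 5012 to 9222 and 23931 to 31935, and member introns 2 to 3, 11 to 16, 0 to 7, 2 to 6 and 11 to 18. PyMT-M minus AT3, PyMT-M minus 2208L and 2208L minus AT3 ran 40 to 398, 82 to 352 and 0 to 223 genes, with 0 to 1, 0 to 1 and 0 to 0 of the 8. PyMT-M, AT3 and 2208L minus T11 ran 2877 to 3924, 966 to 2523 and 1452 to 2838, with 1 to 4, 0 to 1 and 0 to 1 of the 8. Vehicle tumors of PyMT-M over AT3, PyMT-M over 2208L and 2208L over AT3 ran 7109 to 7573, 4946 to 5675 and 5097 to 5507, with 2 to 3, 1 to 2 and 1 to 3 of the 8.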
